A study of Mus musculus with 24 samples.

Results

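The genes described here are the mouse genes for securin (Pttg1), separase (Espl1) and 5 factors that establish, keep or position sister chromatid cohesion (Esco1, Esco2, Cdca5, Hdac8 and Ctcf). They were taken from the RNA table by gene symbol, and all 7 were found among its 54838 genes. Each passed the filter for testing, an FPKM (fragment number corrected for transcript length and library size) of 1 or more in 5 or more libraries, which 12899 genes met. The series is titled for RAD21, a subunit of cohesin, in prostate cancer. Its RNA libraries came from organoids, which are epithelial cultures in a gel of basement membrane proteins, grown from mouse ventral prostate taken at 4 months of age. The T-ERG organoids had the genotype named Tmprss2-ERG and the control organoids the genotype named Tmprss2-fl/fl-ERG. Both names hold Tmprss2, an androgen-regulated protease gene, and ERG, an ETS transcription factor, so the names do not show that control organoids had an unmodified Tmprss2 locus. Each genotype was represented by 2 organoid clones, and each clone by 5 gel domes described by the labels as technical replicates, giving 10 libraries per genotype and 20 in all. No label states that clones of the same genotype derive from different animals, so every p-value speaks only of the scatter among these clones or domes, which may be technical.

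Cohesin is a ring of proteins that holds the copies of each chromosome together between DNA replication and anaphase. Acetylation of its Smc3 subunit by Esco1 and Esco2, followed by binding of sororin (Cdca5), makes the ring stable during S phase, and Hdac8 later removes the acetyl groups. At anaphase the ubiquitin ligase APC/C marks securin for destruction, which frees separase to cut the Rad21 subunit and part the chromatids, while in interphase CTCF holds cohesin at loop anchors.

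The libraries resembled one another in content, with 11829 to 12184 genes at an FPKM of at least 1, but FPKM carries no read counts and the depth is unknown. Mouse Erg did not separate the genotypes (T-ERG minus control 0.08 ± 0.28 on the log2 scale, SE, limma adjusted p = 0.925), and for Tmprss2 the value was -1.17 ± 0.18 (limma adjusted p = 0.506). The table lists mouse genes, so an ERG transcript of another sequence would not be seen in it. The 5 basal epithelial markers summed to 22582 to 24526 FPKM in T-ERG libraries and 17605 to 21959 FPKM in control libraries, without overlap. Krt5 and Krt14 carried the higher sum in T-ERG, with means of 8582 and 10016.5 FPKM there and 5533 and 4235 FPKM in control. The basal Krt15 went the other way, with 4805 FPKM in T-ERG and 9232 FPKM in control, where it was the largest of the 5. Itga6 had a difference of -0.03. The 5 luminal markers summed to 609 to 814 FPKM in T-ERG and 772 to 1319 FPKM in control. The marker lists of fibroblasts, endothelium, leukocytes and smooth muscle each summed to at most 8.36 FPKM in T-ERG and 12.3 FPKM in control. Of these markers, Col1a2, Lum, Cdh5, Kdr, Ptprc, Adgre1, Cd3e, Des and Cnn1 were at 0 in every library. Those that passed the filter were Cd68, up to 12.21 FPKM, Egfl7, up to 8.36 FPKM, and Dcn, up to 4.69 FPKM. Dcn was lower in clone 2 than in clone 1 in T-ERG (limma adjusted p = 3.49e-05) and in control (limma adjusted p = 2.233e-05). The part of the basal and luminal marker differences in the results below was not tested.

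Securin had a lower level in every T-ERG library than in any control library. Pttg1 (ENSMUSG00000020415, GRCm38.p6 chr11:43420244-43427463) had 29.33, 28.07, 24.43, 27.67 and 24.33 FPKM in the domes of T-ERG clone 2 and 36.64, 32.50, 28.78, 46.63 and 23.88 FPKM in those of T-ERG clone 1. In control it had 68.03, 64.94, 67.44, 60.86 and 75.28 FPKM in clone 2 and 61.89, 61.30, 61.02, 58.88 and 71.10 FPKM in clone 1. Here and below, T-ERG clone 2 is given as the unnumbered libraries a and b and replicates 8, 9 and 10, control clone 2 as replicates 6 to 10, and clone 1 as replicates 1 to 5. The highest T-ERG dome, at 46.63 FPKM, therefore lay below the lowest control dome, at 58.88 FPKM. Over the tested genes, 3.7% had all 10 T-ERG libraries below all 10 control libraries, and Pttg1 was the single gene of the 7 in that class.

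The averages were 30.2 ± 6.98 FPKM in T-ERG and 65.1 ± 5.29 FPKM in control (SD over 10 libraries each). With the clone as the replicate, Pttg1 differed by -1.11 ± 0.17 units of log2(FPKM + 1) (SE, 2 clones per genotype, 95% interval -1.56 to -0.65). This did not pass the threshold of 0.05 after adjustment over all tested genes (limma adjusted p = 0.506), although Pttg1, with an unadjusted p of 0.001739, ranked 43 by p. No gene of the 12899 passed the adjusted threshold in this comparison (0%), and none of the 7 did. At an unadjusted p under 0.05, limma listed 1088 genes, or 8.43%, of which the lower ones made up 4.74% of the tested genes, and 1 of the 7, Pttg1, which was lower.

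Within a genotype, neither clone difference in securin passed the test. T-ERG clone 2 averaged 26.8 ± 2.26 FPKM and T-ERG clone 1 averaged 33.7 ± 8.63 FPKM (SD, n = 5 domes each), a difference of -0.29 ± 0.15 on the log2 scale (limma adjusted p = 0.170). Without replicate 5 of T-ERG clone 1, its lowest dome, this difference was -0.40 with a limma adjusted p of 0.0377, and without replicate 4, its highest dome, it was -0.17 (limma adjusted p = 0.331). Control clone 2 averaged 67.3 ± 5.27 FPKM and control clone 1 averaged 62.8 ± 4.76 FPKM, a difference of 0.10 ± 0.07 on that scale (limma adjusted p = 0.282). In descending order of the clones, control clone 2, control clone 1, T-ERG clone 1 and T-ERG clone 2, the domes of neighbouring clones overlapped except at the step between the genotypes.

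**Figure D1:**
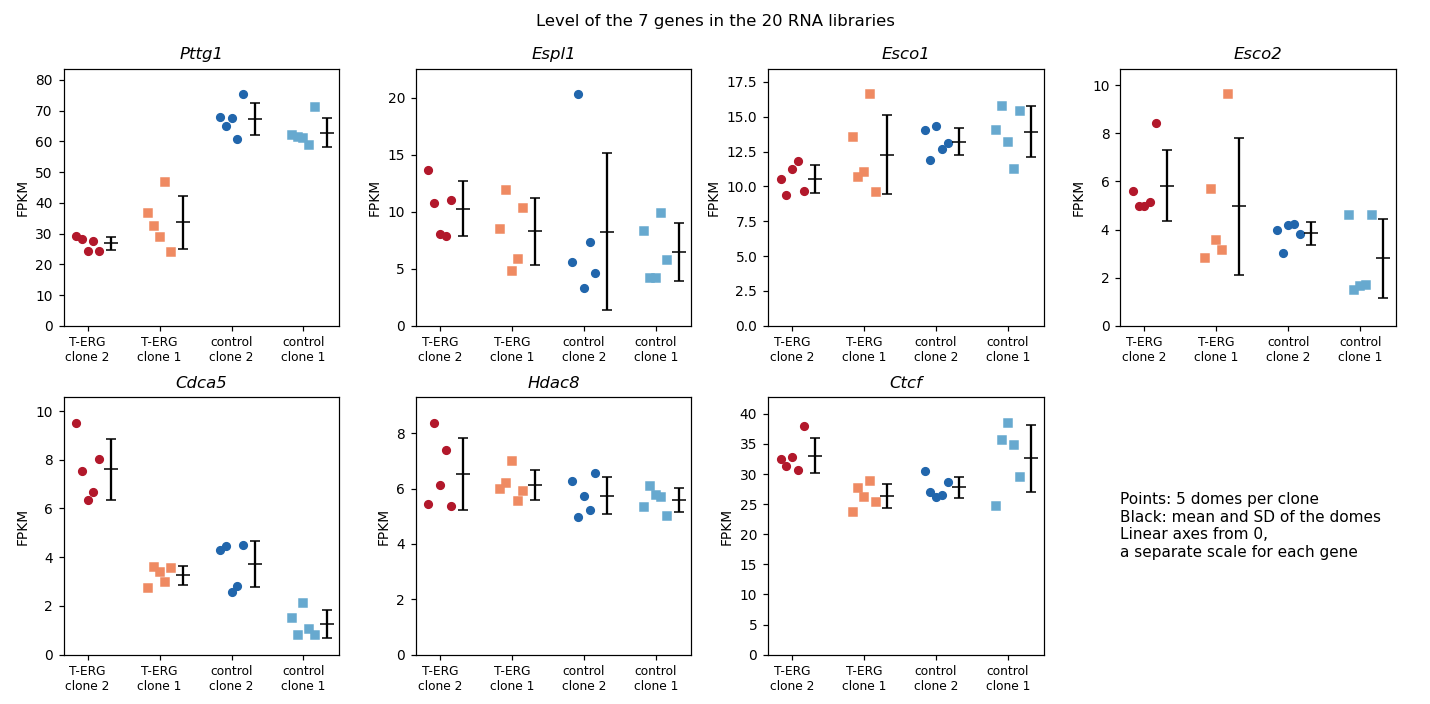
Level of each of the 7 genes, in FPKM on linear axes that start at 0, in the 5 domes of each clone, with the mean and SD of the domes in black. Pttg1 is between 23.88 and 46.63 FPKM in the T-ERG domes and between 58.88 and 75.28 FPKM in the control domes, and Cdca5 is highest in T-ERG clone 2 and lowest in control clone 1.

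Separase RNA, in contrast to securin RNA, had wide and overlapping values. Espl1 (ENSMUSG00000058290, chr15:102296254-102324357), the protease itself, had 13.70, 10.77, 8.06, 7.84 and 11.00 FPKM in T-ERG clone 2 and 8.49, 11.94, 4.83, 5.83 and 10.30 FPKM in T-ERG clone 1. The control values were 5.56, 20.31, 3.35, 7.32 and 4.67 FPKM in clone 2 and 8.30, 4.15, 4.20, 9.88 and 5.79 FPKM in clone 1. One control dome, replicate 7 of clone 2, held the highest value of all and gave that clone a coefficient of variation of 83.7%. The genotypes averaged 9.28 ± 2.76 FPKM in T-ERG and 7.35 ± 4.99 FPKM in control (SD over 10 libraries each), and the difference of 0.41 ± 0.21 log2 units did not pass the threshold (95% interval -0.13 to 0.95, limma adjusted p = 0.574). Neither clone comparison passed for Espl1, with 0.32 ± 0.23 log2 units in T-ERG (limma adjusted p = 0.332, or 0.17 to 0.45 units with 1 dome left out) and 0.13 ± 0.39 in control (limma adjusted p = 0.829). Without replicate 7 of control clone 2, the control value was -0.23.

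Because securin binds and inhibits separase, their levels were also set against each other within each library, which is possible because FPKM is per length. The log2 ratio of Pttg1 to Espl1 was taken on FPKM + 1. It averaged 1.32 in T-ERG clone 2, 1.93 in T-ERG clone 1, 3.13 in control clone 2 and 3.16 in control clone 1. Both T-ERG clones were thus below both control clones, with a mean of 1.63 in T-ERG and 3.14 in control and a difference of -1.52 log2 units. With 0.1 added to FPKM in place of 1, the difference was -1.60. An exact permutation test of 2 against 2 clone means gave a two-sided p of 0.333, the smallest this design allows. Single domes overlapped, since control replicate 7, with its high Espl1, had a ratio of 1.63, and T-ERG clone 1 reached 2.80.

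The acetyltransferases Esco1 and Esco2 had genotype differences of opposite sign, and neither passed the test. Esco1 (ENSMUSG00000024293, chr18:10566507-10610863), which acetylates Smc3 through much of the cell cycle, had 10.51, 9.38, 11.22, 11.81 and 9.68 FPKM in T-ERG clone 2 and 13.52, 10.64, 11.02, 16.61 and 9.61 FPKM in T-ERG clone 1. It had 14.08, 11.92, 14.32, 12.66 and 13.11 FPKM in control clone 2 and 14.03, 15.80, 13.16, 11.28 and 15.41 FPKM in control clone 1. The 5 domes of T-ERG clone 2 lay below all 5 of control clone 2 by a narrow margin, 11.81 against 11.92 FPKM, and overlapped control clone 1. The share of tested genes with such a separation of these clones was not counted. T-ERG clone 1 spanned the control range. The genotype difference was -0.25 ± 0.17 log2 units (limma adjusted p = 0.632), and the clone differences were -0.19 ± 0.13 in T-ERG (limma adjusted p = 0.337, or -0.08 without replicate 4 of clone 1) and -0.06 ± 0.10 in control (limma adjusted p = 0.639).

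Esco2 (ENSMUSG00000022034, chr14:65819027-65833969), the S phase acetyltransferase, had 5.59, 4.97, 4.96, 5.14 and 8.42 FPKM in T-ERG clone 2 and 2.80, 5.69, 3.55, 3.13 and 9.62 FPKM in T-ERG clone 1. In control clone 2 it had 3.97, 3.01, 4.18, 4.21 and 3.81 FPKM, and in control clone 1 it had 4.62, 1.48, 1.66, 1.68 and 4.59 FPKM. T-ERG clone 2, from 4.96 FPKM, lay above every control dome, the highest of which had 4.62 FPKM. The share of tested genes for which this holds was not counted. T-ERG clone 1 overlapped both control clones, and control clone 1 had 3 domes at 1.48 to 1.68 FPKM and a pair at 4.59 and 4.62 FPKM. The difference of 0.56 ± 0.26 log2 units between genotypes did not pass (95% interval -0.11 to 1.23, limma adjusted p = 0.574). The clone differences, 0.28 ± 0.27 in T-ERG (limma adjusted p = 0.474) and 0.44 ± 0.26 in control (limma adjusted p = 0.201), did not pass either. With 1 dome left out, the T-ERG value ran from 0.15, without replicate 1 of clone 1, to 0.52, without its replicate 5.

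Set against Esco1 in the same library, Esco2 had a higher mean in both T-ERG clones than in both control clones. The log2 ratio of Esco2 to Esco1 was taken on FPKM + 1, which draws low values together. It was -0.78 in T-ERG clone 2, -1.25 in T-ERG clone 1, -1.56 in control clone 2 and -2.07 in control clone 1. Esco1 was the higher of the pair in all 4 clones, and the T-ERG clones were closer to equality, with a mean of -1.01 in T-ERG and -1.81 in control and a difference of 0.80. With 0.1 added to FPKM in place of 1, the clones had -0.87, -1.42, -1.77 and -2.45 in the same order. The difference between genotypes was then 0.96. The exact permutation p was 0.333, again the smallest possible with 2 clones per genotype. Single domes overlapped, since T-ERG clone 1 ran from -2.09 to 0.00 and control clone 2 from -1.69 to -1.39.

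Sororin rose in clone 2 over clone 1 in both genotypes, with the largest clone difference of the 7 genes in each. Cdca5 (ENSMUSG00000024791, chr19:6085097-6091773), whose protein shields acetylated cohesin from the release factor Wapl, had 9.50, 7.54, 6.34, 6.67 and 8.04 FPKM in T-ERG clone 2 and 2.73, 3.58, 3.40, 2.99 and 3.57 FPKM in T-ERG clone 1. It had 4.28, 4.48, 2.59, 2.82 and 4.50 FPKM in control clone 2 and 1.50, 0.81, 2.13, 1.07 and 0.81 FPKM in control clone 1. Clone 2 lay wholly above clone 1 in both genotypes, and T-ERG clone 1 and control clone 2 shared a range. How many tested genes had their clones apart in this way was not counted.

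The means of Cdca5 were 7.62 ± 1.25 FPKM in T-ERG clone 2 and 3.25 ± 0.378 FPKM in T-ERG clone 1 (SD, n = 5 domes each), a rise of 1.01 ± 0.12 log2 units (95% interval 0.75 to 1.27, limma adjusted p = 8.256e-05). In control they were 3.73 ± 0.947 FPKM in clone 2 and 1.26 ± 0.56 FPKM in clone 1, a rise of 1.07 ± 0.20 log2 units (95% interval 0.63 to 1.51, limma adjusted p = 0.00141). Of the 7 genes, 2 passed in the T-ERG clone comparison, Cdca5 and Ctcf, against 30.5% of all tested genes. In the control clone comparison 1 passed, Cdca5, against 38.3% of all tested genes. A rise in clone 2 that passed in both genotypes was seen in 8.61% of tested genes. Between genotypes, Cdca5 averaged 5.44 ± 2.46 FPKM in T-ERG and 2.50 ± 1.49 FPKM in control (SD over 10 libraries each). The difference of 0.91 ± 0.52 log2 units had an interval of -0.46 to 2.27 and did not pass (limma adjusted p = 0.584). It was 0.37 without control clone 1, 0.40 without T-ERG clone 2, 1.41 without T-ERG clone 1 and 1.44 without control clone 2. With the proliferation index described below as a covariate, the genotype difference of Cdca5 was -0.04. The step between clones of 1 genotype was thus as large as the step between genotypes, and bulk RNA cannot tell a larger number of cells that express a gene from more RNA per cell.

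Many genes of cell division carry near their start the cell cycle genes homology region, TTTGAA, and the CCAAT box, which is bound by the factor NF-Y. RefSeq promoter windows of GRCm38.p6 were at hand for 5 of the 7 genes, and both strands were searched for both motifs. Those of separase and sororin are printed because both hold a homology region close to the start, while the RNA levels of these genes behaved differently between clones. The Espl1 window is chr15:102296043-102296342 and the Cdca5 window chr19:6084847-6085146, both on the plus strand, with the matches in capitals.
Espl1: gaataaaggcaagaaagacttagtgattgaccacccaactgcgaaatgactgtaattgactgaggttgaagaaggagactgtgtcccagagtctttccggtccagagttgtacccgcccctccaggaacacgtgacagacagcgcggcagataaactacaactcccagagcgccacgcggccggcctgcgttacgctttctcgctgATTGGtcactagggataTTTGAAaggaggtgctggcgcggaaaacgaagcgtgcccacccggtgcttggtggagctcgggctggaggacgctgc
Cdca5: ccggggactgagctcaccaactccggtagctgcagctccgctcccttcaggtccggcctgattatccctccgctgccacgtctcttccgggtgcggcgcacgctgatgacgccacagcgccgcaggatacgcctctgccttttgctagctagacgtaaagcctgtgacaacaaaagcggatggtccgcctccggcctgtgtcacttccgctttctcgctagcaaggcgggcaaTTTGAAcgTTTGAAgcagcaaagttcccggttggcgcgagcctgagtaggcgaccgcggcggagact
Positions are counted from the start used for each window, which for Espl1 lies 39 bases inside the outermost end of the gene. In Espl1 the homology region begins at -27, and thus inside the gene interval given above. A CCAAT box, read on the opposite strand as ATTGG, begins at -44. In Cdca5 the homology region occurs at -17 and again at -9, with no CCAAT box. Of the other windows, Ctcf had 1 homology region, at -161 from a start 64 bases inside its outermost end. Hdac8, with a start 223 bases inside, had 2, at -244 on the minus strand and at -129 on the plus strand. Beside them it had 2 CCAAT boxes that overlap each other on opposite strands. The Pttg1 window lies around a start 1482 bases inside the outermost end of the gene and held neither motif. Among 32544 promoter windows of the same length, 17.8% held TTTGAA, 37.4% held CCAAT and 6.92% held both, so single matches of these short motifs were common. In the 5 windows no match of one motif overlapped a match of the other.

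Hdac8 (ENSMUSG00000067567, chrX:102284638-102505381), the deacetylase that recycles Smc3 after cleavage, had the smallest clone difference of the 7 genes in both genotypes. Its values were 5.45, 8.36, 6.12, 7.40 and 5.36 FPKM in T-ERG clone 2 and 5.98, 6.19, 7.01, 5.56 and 5.92 FPKM in T-ERG clone 1. The control domes had 6.26, 4.98, 5.72, 5.21 and 6.55 FPKM in clone 2 and 5.34, 6.10, 5.78, 5.71 and 5.00 FPKM in clone 1. All 4 clones overlapped, with means of 6.34 ± 0.966 FPKM in T-ERG and 5.67 ± 0.534 FPKM in control (SD over 10 libraries each). The genotype difference was 0.13 ± 0.18 log2 units (95% interval -0.34 to 0.60, limma adjusted p = 0.794). The clone differences were 0.07 ± 0.12 in T-ERG (limma adjusted p = 0.730) and 0.03 ± 0.10 in control (limma adjusted p = 0.835).

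Ctcf (ENSMUSG00000005698, chr8:105636474-105682922), the DNA-binding protein at which cohesin loops stop, rose in T-ERG clone 2 over T-ERG clone 1 and had no difference between genotypes that passed. Its T-ERG values were 32.55, 31.31, 32.78, 30.72 and 37.94 FPKM in clone 2 and 23.77, 27.63, 26.14, 28.77 and 25.35 FPKM in clone 1. Its control values were 30.50, 26.97, 26.24, 26.55 and 28.74 FPKM in clone 2 and 24.64, 35.63, 38.45, 34.79 and 29.45 FPKM in clone 1. The T-ERG clones did not overlap, whereas control clone 1 overlapped both of them. How many tested genes had T-ERG clones apart in this way was not counted. The rise in T-ERG was 0.32 ± 0.07 log2 units (95% interval 0.16 to 0.48, limma adjusted p = 0.00641), and the control difference was -0.21 ± 0.11 (limma adjusted p = 0.164). The difference between these clone effects was not tested. Without replicate 1 of control clone 1, the lowest dome of that clone, the control difference was -0.30 and passed (limma adjusted p = 0.0173). Between genotypes the difference was -0.02 ± 0.19 log2 units (95% interval -0.52 to 0.48, limma adjusted p = 0.973), from 29.7 ± 4.23 FPKM in T-ERG and 30.2 ± 4.62 FPKM in control (SD over 10 libraries each). Without T-ERG clone 1 the genotype value was 0.14, and over all clones left out in turn it ran from -0.18 to 0.14. On the assembly Ctcf overlaps Gm5914, Gm5915 and Gm33578, and Hdac8 overlaps Gm32262. The labels do not tell whether reads were counted by strand, so reads of these partners cannot be told apart from those of Ctcf and Hdac8.

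**Figure D2:**
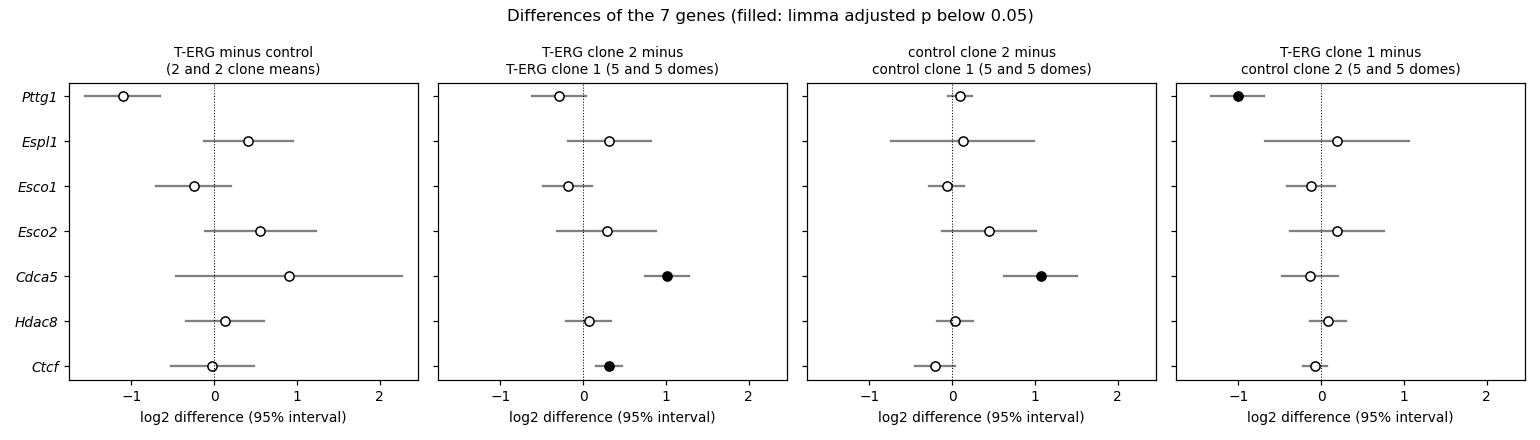
Differences in log2(FPKM + 1) for the 7 genes in 4 comparisons, with 95% intervals, where filled points passed a limma adjusted p of 0.05. Cdca5 passed between the clones of both genotypes, Ctcf between the T-ERG clones, and Pttg1 between T-ERG clone 1 and control clone 2.

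Counted over the 4 clone means, both T-ERG clones were above both control clones for 3 of the 7 genes, Espl1, Esco2 and Hdac8, a pattern held by 21.7% of tested genes. Both were below for Pttg1 and Esco1, a pattern held by 23.2%. Cdca5 and Ctcf had interleaved clone means. With 1 clone left out, the genotype difference ran from 0.25 to 0.57 for Espl1, from 0.34 to 0.78 for Esco2 and from -0.34 to -0.15 for Esco1.

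The clones also differed in how strongly genes of cell division were expressed. A proliferation index was taken as the mean log2(FPKM + 1) of 28 proliferation genes, none of them among the 7. It was 5.13 ± 0.03 in T-ERG clone 2, 4.21 ± 0.03 in T-ERG clone 1, 4.30 ± 0.03 in control clone 2 and 3.19 ± 0.08 in control clone 1 (SD, n = 5 domes each). The clone differences, 0.92 in T-ERG and 1.11 in control, were about as large as the mean difference of 0.93 between genotypes (exact permutation p = 0.667, 2 against 2 clone means). T-ERG clone 1 and control clone 2 had nearly the same index.

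The clone means of Cdca5 kept an almost fixed distance from this index. They were below it by -2.04 in T-ERG clone 2, -2.13 in T-ERG clone 1, -2.08 in control clone 2 and -2.05 in control clone 1. The SD of these clone means, pooled within the genotypes, was 0.05. Single domes scattered more, with SDs of 0.19, 0.13, 0.31 and 0.38 in the same clones. In control clone 1, where Cdca5 had 0.81 to 2.13 FPKM, the distance ran from -2.47 to -1.52. Per unit of index, Cdca5 changed by 1.10 between the T-ERG clones and 0.97 between the control clones. The distance was less even with a pseudocount of 0.1, which weighs low values more, at -2.15, -2.37, -2.31 and -2.62 in the same clones. The genotype difference in distance was -0.02 (exact permutation p = 1) with the pseudocount of 1 and 0.20 with that of 0.1. With the G2/M genes as the index, a list that shares many genes with the main index, it was 0.04.

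Pttg1 did not follow the index. Its distance from the index was -0.34 in T-ERG clone 2, 0.87 in T-ERG clone 1, 1.79 in control clone 2 and 2.80 in control clone 1. The other 5 genes apart from Cdca5 likewise had their lowest distance in T-ERG clone 2, the clone with the highest index. A gene of unchanged level would also have its lowest distance there. For Pttg1 the genotype difference in distance was -2.03 log2 units (exact permutation p = 0.333, the smallest possible). This value includes the index, which was itself 0.93 higher in T-ERG. Ctcf, with a level difference of -0.02, had a distance difference of -0.95, and Hdac8 had -0.79. Esco1 had -1.17, also with an exact permutation p of 0.333. Per unit of index, Pttg1 changed by -0.31 between the T-ERG clones and 0.09 between the control clones. Espl1 and Esco2 changed by 0.35 and 0.31 per unit between the T-ERG clones and by 0.12 and 0.40 between the control clones, less in value than Cdca5. Esco1, with -0.20 in T-ERG and -0.06 in control, and Hdac8, with 0.07 and 0.03, stayed near 0, and Ctcf had 0.34 in T-ERG and -0.19 in control.

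**Figure D3:**
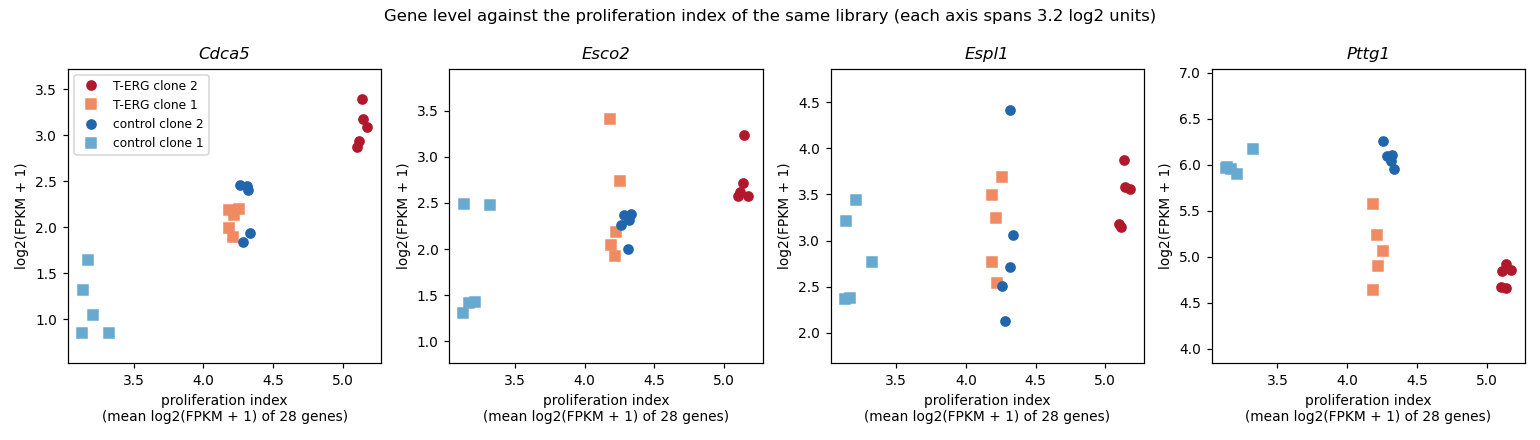
Level of Cdca5, Esco2, Espl1 and Pttg1, in log2(FPKM + 1), against the proliferation index of the same library, with 1 point per dome and every axis of level spanning the same length. Cdca5 lies along a rising line of the 4 clones, whereas Pttg1 at an index near 4.21 to 4.30 falls into a lower T-ERG and a higher control group.

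The clones closest in index, T-ERG clone 1 and control clone 2, were compared after their index values were seen. This compares 2 clones and not the genotypes. Pttg1 was lower in T-ERG clone 1, with a difference of -1.01 ± 0.15 log2 units (95% interval -1.33 to -0.69, limma adjusted p = 0.00047, n = 5 domes each). It was the 1 gene of the 7 that passed, against 24.4% of all tested genes in either direction with 9.09% higher and 15.3% lower. Cdca5 had a difference of -0.13 ± 0.15 (interval -0.47 to 0.20, limma adjusted p = 0.585), Espl1 of 0.19 ± 0.39 (limma adjusted p = 0.78) and Esco2 of 0.19 ± 0.26 (limma adjusted p = 0.65). The 27 G2/M genes, which act around mitosis as securin does, had a median of -0.13, with 0 higher and 7 lower. The 25 S phase genes had a median of 0.03, with 3 higher and 0 lower, and all tested genes had a median of -0.05. Both lists share many genes with the index by which this pair was chosen. Their medians were thus in part set by that choice and are no separate contrast to Pttg1. In the same pair of clones all 5 luminal markers passed as lower in T-ERG clone 1, with a median of -0.91, and of the 5 basal markers 3 passed as higher and 1 as lower, and their part in the Pttg1 difference was not tested.

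Other genes of the same machinery were read as lists, beside a genotype median of 0.01 over all tested genes. Every gene of the proliferation index is also in the S phase or the G2/M list. Pcna in the fork list and Bub1 and Bub1b in the checkpoint list are index genes too. The medians of those lists are therefore not separate from the index. Of 25 tested S phase genes, 13 had both T-ERG clones above both control clones and 0 the reverse, with a median of 0.89 log2 units. The largest difference was that of Mcm5, part of the helicase that opens DNA at the fork (32.7 FPKM in T-ERG and 11.3 FPKM in control, 1.50 ± 0.61). The 27 G2/M genes had a median of 0.85 and all differences positive, led by the ubiquitin-conjugating enzyme Ube2c, the E2 of the APC/C, at 1.07 ± 0.56. Of these 27, however, 2 had both T-ERG clones above both control clones and 0 the reverse. Over all tested genes the shares were 21.7% above and 23.2% below. Ube2c itself was interleaved, with 53.4 FPKM in T-ERG clone 1 and 57.2 FPKM in control clone 2. Pttg1, at -1.11, was opposite in sign to each of the 27 G2/M genes, most of which the clones did not separate by genotype. None of these list genes passed in the genotype comparison.

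Among the regulators that act on securin and separase, the 17 APC/C genes had a genotype median of 0.19, with 6 separate above and 1 below. The largest difference was that of the activator Cdc20, with 42.1 FPKM in T-ERG and 18.9 FPKM in control (1.09 ± 0.54, limma adjusted p = 0.575). Cdc20 also differed by 1.20 log2 units between the T-ERG clones and by 1.06 between the control clones. It was interleaved, with 25.1 FPKM in T-ERG clone 1 and 25.9 FPKM in control clone 2. The 10 spindle checkpoint genes, which restrain Cdc20 until chromosomes are attached, had a median of 0.57 with 3 separate above, and Bub1b led with 0.93.

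Among the partners of the establishment factors, the 8 genes that link cohesion to the replication fork had a median of 0.73, with 3 separate above and 0 below. Dscc1, part of the alternative clamp loader, led them with 3.22 FPKM in T-ERG and 0.99 FPKM in control (1.09 ± 0.31, limma adjusted p = 0.574). The 13 genes of the ring, its loader and its release had a median of 0.23 with 3 above and 4 below, and Rad21, the separase substrate, had a difference of 0.01 (limma adjusted p = 0.978). The largest of them was Sgo2a, a protector of centromeric cohesin, at 0.59. Its clones were interleaved, with 3.93 FPKM in T-ERG clone 1 and 4.91 FPKM in control clone 2. The 6 tested insulator genes had a median of 0.00, with Yy1 at 0.28 the largest, and Ctcfl, the germline paralogue of Ctcf, was listed at 0.

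Between clones of 1 genotype, genes that passed the threshold were counted. In the S phase list 24 of 25 passed as higher in clone 2 in T-ERG and 23 of 25 in control, with a median of 0.79 in T-ERG and 0.99 in control. In the G2/M list 26 of 27 passed as higher in each genotype, with a median of 0.98 in T-ERG and 1.04 in control, so Cdca5, at 1.01 in T-ERG and 1.07 in control, lay near the middle of that list. In the fork list 6 of 8 did so in each, and in the ring list 7 of 13 in T-ERG and 6 of 13 in control, where 1 passed as lower. For all tested genes the shares were 17% higher and 13.5% lower in T-ERG, and 25.1% higher and 13.2% lower in control.

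**Figure D4:**
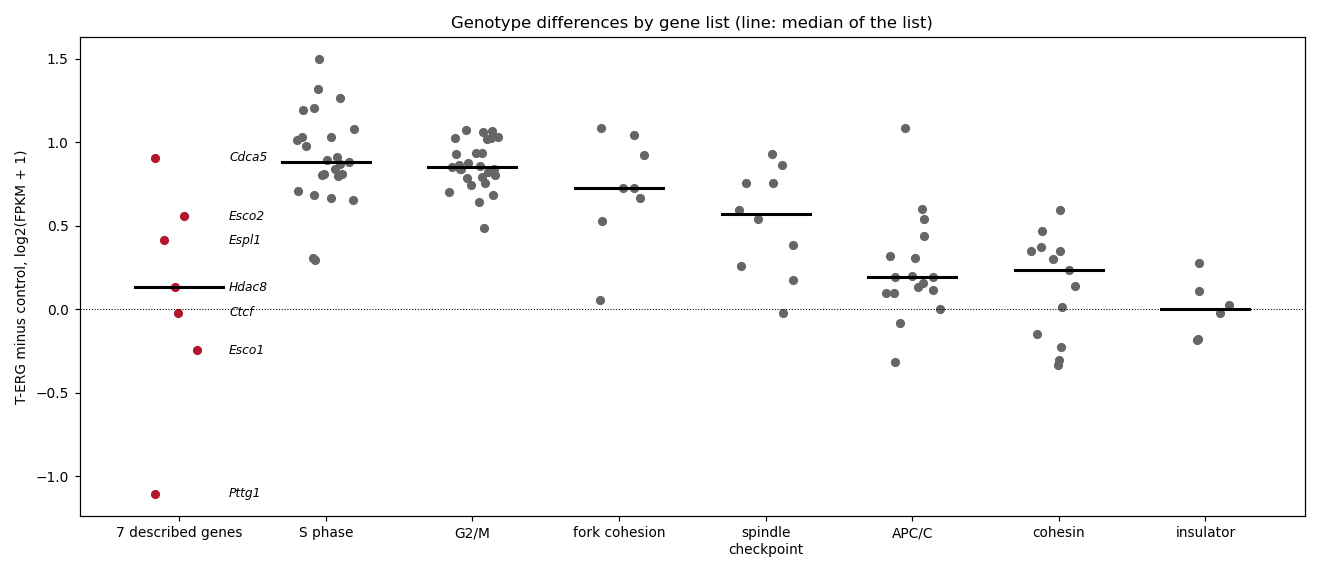
Genotype difference, T-ERG minus control in log2(FPKM + 1), for the 7 genes in red and for the tested genes of each related list in grey, with the list median as a line. The S phase and G2/M genes lie above 0 with medians of 0.89 and 0.85, while Pttg1 lies at -1.11.

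The genes with the most similar pattern were found by Pearson's r of log2(FPKM + 1) over the 20 libraries, which share clones, so that r is given as a description without a p. Pttg1 was most like Clint1, Sprr2a1 and Mmp15, with r of 0.951, 0.949 and 0.948, and none of these belongs to the lists of cell division genes. Cdca5 was most like Ruvbl1, Prmt5 and Tubg1, with r of 0.973, 0.957 and 0.956. For Esco2 the closest were Itpa, Lhpp and Mns1, at 0.86, 0.839 and 0.82. Lower values were found for Espl1, closest to Eme2, Sap30bp and Zbtb45 at 0.723, 0.72 and 0.696, and for Esco1, closest to Hspb11, Aaed1 and Parm1 at 0.78, 0.768 and 0.756. Hdac8 was closest to Foxp1, Abhd14a and Eif2b4, at 0.722, 0.71 and 0.675, and Ctcf to Proser3, Fam32a and Zfp966, at 0.772, 0.727 and 0.714. Cdca5 and Pttg1 thus had close companions over these libraries, while Espl1 and Hdac8 had none above 0.723.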

How the data were processed

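RNA of 20 organoid domes was analysed, and 4 whole-genome libraries were not used here. The authors deposited log2(FPKM + 1) values per gene. Undoing the log2 gave an FPKM of 2 decimals for 100% of values (tolerance 0.001 hundredths). RSEM 1.3.0 and DESeq2 were used with build mm10, per the submitters' processing notes, while for the aligner and gene annotation nothing is given in the sources used here. FPKM sums ran from 728255 to 794589 per library. FPKM scales each library to its own total, so a few very abundant genes can lower all others, and it gives no count from which counting error could be had. Of the T-ERG columns, 2 shared a header number. They are called unnumbered a and b and belong to clone 2, because the T-ERG samples left without a numbered column were of that clone.

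The 12899 genes that reached an FPKM of 1 in 5 or more libraries were tested with limma 3.58.1 in R 4.3.3, with intensity trend, two-sided, and Benjamini-Hochberg adjustment over all of them at 0.05. A pseudocount of 1 was used, so differences understate changes of low genes. The 5 domes of a clone were averaged for the genotype comparison, and clones were compared on 5 against 5 domes. Ratios and distances from the index were tested by exact permutation of 4 clone means. Figures and summaries were made in Python 3.11.15 with numpy 2.4.6 and pandas 2.3.3. The genotype and clone fits were also run on simulated data with known changes, where the clone data held no other spread between clones. The share of changes found is not given here, so these runs do not tell how many real differences the genotype comparison missed. Named genes were the 7, the 3 of highest r with each, leaving out predicted genes and pseudogenes, and the largest genotype difference in each list. Members, lists and tests were chosen with earlier results of these data known. Coordinates and promoters are from RefSeq, GRCm38.p6. The alternatives were no filter on low values, a mean FPKM of at least 5, no intensity trend, the G2/M or S phase genes as the index, a pseudocount of 0.1, median centring, quantile normalization, all libraries as independent, the index as covariate, replicate blocks and leaving out each clone or dome.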

Additional observations from a re-analysis of the deposited data

Results flagged for a closer look

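Values of each gene and ratio in each clone were examined on the log2 scale for a dome set far from the others, in 40 groups of 5, where chance marks about 1 in 20. Pttg1 in control clone 1 was at 71.1 FPKM in replicate 5, against a next value of 61.89 FPKM, a gap of 0.736 of the range of log2(FPKM + 1). Esco2 in T-ERG clone 2 was at 8.42 FPKM in replicate 10, against a next value of 5.59 FPKM, a gap of 0.78 of that range. Both gaps exceed Dixon's critical value of 0.71. On the FPKM scale these gaps were 0.754 and 0.818, and Espl1 in replicate 7 of control clone 2 (20.31 FPKM, next 7.32, gap 0.766) and Ctcf in replicate 10 of T-ERG clone 2 (37.94 FPKM, next 32.78, gap 0.715) exceeded it too. The Pttg1 and Esco2 domes lay on the side away from the other genotype, and a cause was not tested.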

How the results depend on the processing

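Over 15 settings the genotype difference of Pttg1 ran from -1.25 to -0.96, with limma adjusted p between 3.064e-08 and 0.9998. Counting all 20 libraries as independent gave 4737 genes and 4 of the 7 (Pttg1, Esco1, Esco2 and Cdca5), since domes then stand as replicates. The added comparison of T-ERG clone 1 with control clone 2 gave 3144 genes and 1 of the 7, with Cdca5 at -0.13. With the proliferation index as covariate, Cdca5 was at -0.0371 and Pttg1 at -1.03 (limma adjusted p = 0.935). At a mean FPKM of at least 5, 1 of the 7 passed between T-ERG clones and 0 between control clones, because Cdca5 and Esco2 leave at that filter. Between control clones, Hdac8 was -0.0588 with median centring and -0.10 with quantile normalization, and Pttg1 -0.0044 with quantile normalization. The median of all tested genes was 0.10 there. The distance of Cdca5 from the index differed between genotypes by 0.20 with a pseudocount of 0.1 and by 0.04 with the G2/M genes as the index. That of Pttg1 differed by -1.97 with these genes and by -2.01 with the S phase genes. Both lists share many genes with the main index.

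Leaving out a clone or dome gave Ctcf between genotypes -0.18 to 0.14, Hdac8 between T-ERG clones -0.0159 to 0.12, and between control clones Espl1 -0.23 to 0.34, Hdac8 -0.0112 to 0.0729 and 1 to 2 of the 7 passing. Without unnumbered a and b, 3038 genes and 2 of the 7 passed between T-ERG clones. Dome numbers did not pair the samples (correlations of deviations -0.007 to 0.059). With a replicate block for the dome number, 1370 genes and 1 of the 7 passed between T-ERG clones (3 numbered pairs, Ctcf adjusted p = 0.155) and 4510 genes and 1 of the 7 between control clones. With the clone number as block, 0 genes and 0 of the 7 passed between genotypes. With 2 clones per genotype no exact permutation p can fall below 0.333.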

Other observations

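Genes beside the 7 on their chromosomes were read after their values were seen. Next to Pttg1 on chromosome 11, Atp10b, a phospholipid flippase gene 158 kb towards lower coordinates, had 2.10 to 6.09 FPKM in T-ERG and 8.72 to 12.26 FPKM in control, without overlap, and T-ERG minus control was -1.31 ± 0.32 on the log2 scale (limma adjusted p = 0.574). On the other side, Slu7, a splicing factor gene 6.26 kb away, averaged 25.8 FPKM in T-ERG and 36.0 FPKM in control (-0.47 ± 0.17, limma adjusted p = 0.574), with overlap of single domes. Fabp6, a bile acid binding protein gene 169 kb away, had -0.49 ± 0.58, and Ccng1, the cyclin G1 gene 2665 kb away, had 0.50 ± 0.29, neither of which passed. Next to Cdca5, Sac3d1 averaged 14.5 FPKM in T-ERG and 7.40 FPKM in control, without overlap of domes. The difference was 0.90 ± 0.22 log2 units (limma adjusted p = 0.574). Sac3d1 lies 24.2 kb from Cdca5, while the nearer Zfpl1 (0.122 kb) had -0.03 and Vps51 (7.91 kb) had -0.20. Snx15, at 27.6 kb, had -0.01, and the domes of Zfpl1, Vps51 and Snx15 overlapped. Rps4x beside Hdac8 also had no overlap of domes (0.15 ± 0.12). Over all tested genes, 2.5% had all T-ERG libraries above all control libraries and 3.7% had them below.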
